A study of Mus musculus with 144 samples.

Results

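The genes described here are 10 liver genes of xenobiotic and lipid sensing: the nuclear receptors *Nr1i2*, *Nr1i3*, *Nr1h3*, *Nr1h2*, *Rxra*, *Rxrb*, *Nr5a2* and *Esr1*, and *Por* and *Cyb5a*, which feed electrons to cytochrome P450 enzymes. They were chosen by name, their symbols were matched to Ensembl identifiers, and all 10 were found among the 55359 genes counted. RNA-Seq libraries were made from primary hepatocytes of 28 day old male mice, either C57BL/6NCrl mice, called WT, or Pkm-delta-DRE mice, here written PkmΔDRE, in which a dioxin response element inside an intron of *Pkm* had been deleted by genome editing of the founders. Cells received 10 nM TCDD, a chlorinated dioxin that binds the aryl hydrocarbon receptor (AhR), or its DMSO vehicle, and were sampled after 2, 4 and 8 h, after 12, 24 and 48 h, and after 72, 96 and 120 h. All groups, controls included, were kept in medium with 100 nM dexamethasone, a glucocorticoid. There were 36 groups of 4 libraries, numbered here as replicates 1 to 4 in the order of deposition, a name that pairs nothing.

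The sources did not say whether the 4 libraries of a group came from separate animals or isolations, so p-values measure only the spread between these libraries, which may be technical. The sample characteristics give 12-well plates seeded with 500000 cells, whereas the protocol gives 6-well plates, so the culture format was uncertain. Libraries held 13588848 to 30719161 read pairs counted on genes (median 18011825). Levels are given as CPM, a gene's count relative to the total of its library after scaling between libraries. Adjusted p-values are from the quasi-likelihood test of edgeR, adjusted by Benjamini and Hochberg's method across every gene tested. A gene was called when this value was below 0.05 and the change was 1.5-fold or more.

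The pregnane X receptor (PXR, *Nr1i2*) and the constitutive androstane receptor (CAR, *Nr1i3*) sense drugs, steroids and bile acids and switch on P450 enzymes, conjugating enzymes and transporters. The liver X receptors (LXRα, *Nr1h3*, and LXRβ, *Nr1h2*) sense oxysterols and act on cholesterol export and fatty acid synthesis. All of these bind DNA as pairs with a retinoid X receptor (RXRα, *Rxra*, or RXRβ, *Rxrb*), whereas liver receptor homolog 1 (LRH-1, *Nr5a2*), a regulator of bile acid genes, binds alone and estrogen receptor α (*Esr1*) binds as a pair with itself. P450 oxidoreductase (*Por*) passes electrons from NADPH to every microsomal P450, and cytochrome b5 (*Cyb5a*) can deliver the second electron of the P450 cycle. Hepatocytes in culture are known to lose many of these functions with time.

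Several libraries stood apart from their labels. *Cyp1a1*, the best known AhR target, in WT reached 3285 CPM in vehicle replicate 1 at 48 h and 1717 CPM in vehicle replicate 3 at 96 h, and only 1.15 CPM in TCDD replicate 4 at 2 h and 29.2 CPM in TCDD replicate 4 at 72 h. In the libraries labelled PkmΔDRE, vehicle replicate 4 at 4 h had 199 CPM of *Por*, against 1636 to 1996 in the other vehicle libraries of its group, and vehicle replicate 4 at 96 h had 2160.5 CPM, against 179 to 267. Albumin (*Alb*), by which these libraries were also picked out, was 7957 CPM against 92155 to 106890 at 4 h. At 96 h it was 74152 CPM against 8983 to 12133. No library was moved to another group, and values of *Por* and *Cyb5a* with TCDD that moved most without these 6 libraries are given both ways. *Pkm* itself went against the genotype labels at 8 h: TCDD-treated libraries held 109.2 to 169 CPM against 37.8 to 81.5 CPM in vehicle under the label PkmΔDRE, and 29.3 to 62.6 CPM against 41.8 to 80.8 CPM under the label WT. Groups are therefore named by the label of their libraries. Of 8 hepatocyte markers 7 were matched, and their summed level in vehicle-treated libraries fell between 2 and 120 h, from 121450 to 163800 CPM to 3000 to 16781 CPM under the label WT. Summed Kupffer cell and macrophage markers were 166 to 261 CPM and 19.9 to 116.7 CPM at these times, and stellate cell and fibroblast markers were 5.15 to 13 CPM and 20.9 to 140 CPM. Endothelial markers were 162 to 301 CPM and 28.7 to 48.5 CPM, and cholangiocyte markers 34.2 to 132.5 CPM and 140.3 to 193 CPM. The cholangiocyte markers did not move together from 2 to 120 h. On the log2 scale *Krt7* (8.90) and *Krt19* (6.41) were called higher, *Epcam* (-1.89) was called lower and *Sox9* (0.35) was not called. The part of these markers in the members' values was not tested. Fewer cells of a type and less RNA per cell cannot be told apart in such cultures.

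Among the members, TCDD libraries stood clear of vehicle most often for *Por*, and by the largest fold for *Nr1i3*, so the promoters of these genes are shown, each from 250 bases before to 50 bases after the transcription start. Capitals mark the core of the dioxin response element, GCGTG or its reverse complement CACGC, searched on both strands. The sequences are from RefSeq with coordinates of mouse build GRCm38.p6, whereas the counts were made on build GRCm39.

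*Por*, chr5:135688895-135689194, plus strand: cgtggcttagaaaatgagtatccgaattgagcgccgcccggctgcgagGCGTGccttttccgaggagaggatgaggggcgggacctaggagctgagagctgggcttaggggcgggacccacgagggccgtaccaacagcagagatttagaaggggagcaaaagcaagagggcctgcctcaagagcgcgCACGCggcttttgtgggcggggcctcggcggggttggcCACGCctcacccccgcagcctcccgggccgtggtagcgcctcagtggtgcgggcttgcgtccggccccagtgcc

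*Nr1i3*, chr1:171213720-171214019, plus strand: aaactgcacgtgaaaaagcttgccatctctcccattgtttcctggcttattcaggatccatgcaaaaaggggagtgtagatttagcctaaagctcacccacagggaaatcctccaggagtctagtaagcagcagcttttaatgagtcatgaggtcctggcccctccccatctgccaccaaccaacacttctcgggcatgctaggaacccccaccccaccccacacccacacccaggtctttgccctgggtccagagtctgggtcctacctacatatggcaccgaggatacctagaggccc

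The *Por* window held 3 core matches, starting at bases -202, -62 and -24, none of which overlapped, and the *Nr1i3* window held 0. Of all 32851 promoter windows of this length, 32.4% held at least 1 match and 3.91% held 3 or more. Among the 14 windows found for 9 of the 10 members, 5 held a match, belonging to *Por*, *Rxrb*, *Nr5a2* and *Esr1*. A match is a description of the letters and not evidence of binding.

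Levels of different genes were compared per kilobase of exon that no other gene shares. In the 8 vehicle-treated libraries at 2 h, both labels together, *Por* stood at 510 ± 88 CPM per kb (SD, n = 8) and *Cyb5a* at 287 ± 33.3, and their ranges did not overlap. *Rxra* followed at 56.4 ± 8.56, *Nr1h3* at 36.8 ± 4.36, *Nr1i2* at 23.9 ± 5.95, *Nr1h2* at 18.1 ± 2.29 and *Rxrb* at 12.6 ± 1.43 CPM per kb, and each of these neighbours overlapped the next in range. *Nr1i3* (4.33 ± 1.89), *Nr5a2* (1.05 ± 0.486) and *Esr1* (0.337 ± 0.126 CPM per kb) were the lowest. In *Nr1i3*, 74.9% of the exon bases lie in exons of *Tomm40l* on the opposite strand, and the counts did not use strand, so reads there cannot be assigned and its level is uncertain. At 120 h the order had changed: *Cyb5a* was first at 121.6 ± 19.7 CPM per kb, with no overlap with *Por* at 39.1 ± 12.3, and *Nr1i3* was last.

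**Figure D1:**
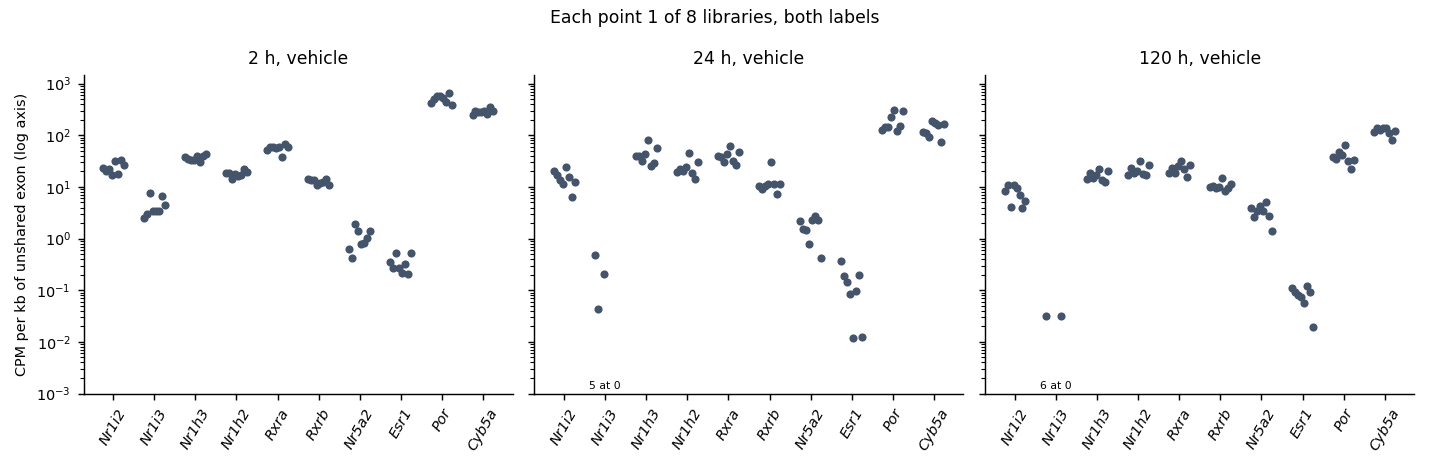
Level of each member in vehicle-treated libraries at 2, 24 and 120 h, in CPM per kb of exon shared with no other gene, on a log axis. Each point is 1 of 8 libraries, 4 of each label, and libraries without a count are given as a number; *Por* and *Cyb5a* lie above the receptors at 2 h, and *Nr1i3* has no count in 6 of 8 libraries at 120 h.

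Time in culture was asked first, in vehicle alone, since it sets the level at which each TCDD comparison was made. In libraries labelled WT, 7 of 10 members fell and 1 rose between 2 and 120 h, where 57.9% of all genes tested were called. Under the label PkmΔDRE the counts were likewise 7 and 1, where 49.4% of genes were called, and the 8 members were *Nr1i2*, *Nr1i3*, *Nr1h3*, *Rxra*, *Nr5a2*, *Esr1*, *Por* and *Cyb5a* under both labels. The median log2 change of the members was -1.36 and -1.50, beside 0.21 and 0.24 over all genes tested. From 2 to 24 h, 4 members were called under each label (backgrounds 45.8% for WT and 33.2% for PkmΔDRE), and from 24 to 120 h, 6 and 3 (backgrounds 35.6% and 23.4%). These contrasts share groups of libraries, so they are not independent of each other.

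*Nr1i3*, the CAR gene, was close to lost. At 2 h the vehicle libraries held 2.79, 3.29, 8.54 and 3.81 CPM under the label WT and 3.76, 3.80, 7.49 and 4.94 CPM under the label PkmΔDRE. At 24 h they held 0.525, 0.048, 0 and 0.228 CPM and, under the label PkmΔDRE, no count in any of 4 libraries. No library of the later time overlapped those of the earlier. The log2 change from 2 to 24 h in WT was -4.58 (SE 1.01, adjusted p = 0.000389). In PkmΔDRE libraries the level at 24 h was at least 136.2-fold lower than at 2 h, taking 3 counts over the group as the floor. At 120 h a single count remained under each label, for ratios of 511 (95% exact Poisson interval 91.6 to 20164) and 493 (88.4 to 19464) to the 2 h level, intervals that cover counting error only.

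*Nr1i2*, the PXR gene, fell by less, and it was called by 24 h under the label PkmΔDRE and only after 24 h in WT. In WT it was 59.1, 52.5, 56.3 and 43.6 CPM at 2 h and 21.5, 27.3, 10.5 and 27.6 CPM at 120 h, and under the label PkmΔDRE 80.7, 45, 83.8 and 68.1 CPM and 24, 18, 10.2 and 13.7 CPM. The groups did not overlap under either label. From 2 to 24 h the log2 change was -0.53 in WT (SE 0.28, adjusted p = 0.119) and -1.05 under the label PkmΔDRE (SE 0.32, adjusted p = 0.012), a difference between labels that was not tested. At 4 h the vehicle libraries held 31.2 to 60.8 CPM in WT and 29 to 48.4 CPM under the label PkmΔDRE. The log2 change from 2 to 120 h was -1.45 in WT (SE 0.29, adjusted p = 6.33e-05) and -2.28 under the label PkmΔDRE (SE 0.33, adjusted p = 4.67e-06). In WT 3 of the 4 vehicle libraries at 12 h, at 74.7, 78.4 and 108.6 CPM, were above all 4 libraries at 2 h, a difference that was not tested.

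Of the LXR pair, *Nr1h3* fell over time in vehicle, and *Nr1h2* was not called in any of the contrasts of time. *Nr1h3* in WT was 92.6, 87.9, 82.6 and 82.2 CPM at 2 h, 99.4, 97.9, 77.8 and 108.8 CPM at 24 h and 35.9, 47.1, 37.2 and 41.8 CPM at 120 h. Its fall lay after 24 h, with a log2 change from 24 to 120 h of -1.29 in WT (SE 0.25, adjusted p = 9.29e-05) and -1.53 under the label PkmΔDRE (SE 0.33, adjusted p = 0.00161). *Nr1h2* was 62.4, 63, 48.3 and 61.1 CPM at 2 h and 58.3, 76.5, 63.4 and 67.8 CPM at 120 h in WT, and these groups overlapped. Its log2 change from 2 to 120 h was 0.00 in WT (SE 0.17, adjusted p = 0.991) and 0.11 under the label PkmΔDRE (SE 0.29, adjusted p = 0.77).

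Of the RXR pair, *Rxra* fell under both labels. *Rxra* was 285, 327, 319 and 311 CPM at 2 h and 102.1, 126.7, 99.8 and 136.3 CPM at 120 h in WT, and 321, 210, 375 and 318 CPM and 173, 122.6, 87 and 142.9 CPM under the label PkmΔDRE. Neither pair of groups overlapped, and the log2 changes were -1.59 (SE 0.20, adjusted p = 4.75e-08) and -1.42 (SE 0.33, adjusted p = 0.000733). *Rxrb* passed the p threshold in WT without reaching the fold (log2 change -0.55, SE 0.20, adjusted p = 0.0177), was called without replicate 4 at 2 h (-0.63) or at 24 h (-0.61), and did not pass under the label PkmΔDRE (-0.35, SE 0.34, adjusted p = 0.409). The difference in change between relatives was not tested.

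*Nr5a2*, the LRH-1 gene, was the sole member that rose. In WT it was 3.71, 2.47, 11.1 and 8.17 CPM at 2 h and 23.1, 15.1, 20.1 and 24.9 CPM at 120 h, without overlap, for a log2 change of 1.56 (SE 0.43, adjusted p = 0.00219). In PkmΔDRE libraries it was 4.53, 4.89, 6.14 and 8.37 CPM and 20.2, 30.4, 16.5 and 8.20 CPM, which overlapped through 1 library, for a log2 change of 1.46 (SE 0.50, adjusted p = 0.0161). The share of pairs on no gene was 24.2 to 30.2% at 2 h and 21.2 to 23.6% at 120 h in WT. A fit was also made with the part of this share that fell outside annotated exons. The change was then 0.23 in WT (adjusted p = 0.74) and 0.34 under the label PkmΔDRE (adjusted p = 0.62). The ranges above are of the whole share and not of the part that was fitted. How far that part moved with time in culture is not given here, so the 2 may not be separable.

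*Esr1*, which is low in these cells, was 4.92, 3.66, 7.21 and 3.73 CPM at 2 h and 1.52, 1.28, 1.11 and 0.994 CPM at 120 h in WT, a log2 change of -2.15 (SE 0.52, adjusted p = 0.000649) without overlap. The change in PkmΔDRE libraries was -2.32 (SE 0.69, adjusted p = 0.00698). Between these ends its course was not even: vehicle libraries in WT held 0.363 to 2.47 CPM at 12 h and 1.16 to 6.20 CPM at 48 h.

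*Por* fell most among the members that kept counts throughout. In WT it was 1698, 2061, 2289 and 2296 CPM at 2 h, 512, 572, 588 and 889 CPM at 24 h and 153, 139.3, 187 and 166 CPM at 120 h, with no overlap between any of the 3 groups. Libraries labelled PkmΔDRE held 2124, 1775, 2612 and 1562 CPM at 2 h and 258, 128.5, 90.2 and 136.2 CPM at 120 h. The log2 change from 2 to 120 h was -3.86 (SE 0.35, adjusted p = 3.53e-11) and -3.92 (SE 0.69, adjusted p = 3.95e-05), or 14.5-fold and 15.1-fold lower. *Cyb5a* fell early: in WT it was 774 to 920 CPM at 2 h and 283 to 576 CPM at 24 h. It was higher again at 72 h, at 472 to 1196 CPM, and at 96 h, at 494 to 711 CPM, than at 120 h, at 359 to 436 CPM, and under the label PkmΔDRE it was 173 to 386 CPM at 48 h and 459 to 736 CPM at 96 h. Its log2 change was -1.26 from 2 to 24 h (SE 0.30, adjusted p = 0.000866) and -0.01 from 24 to 120 h in WT, and -1.19 (SE 0.29, adjusted p = 0.00233) and -0.40 under the label PkmΔDRE.

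**Figure D2:**
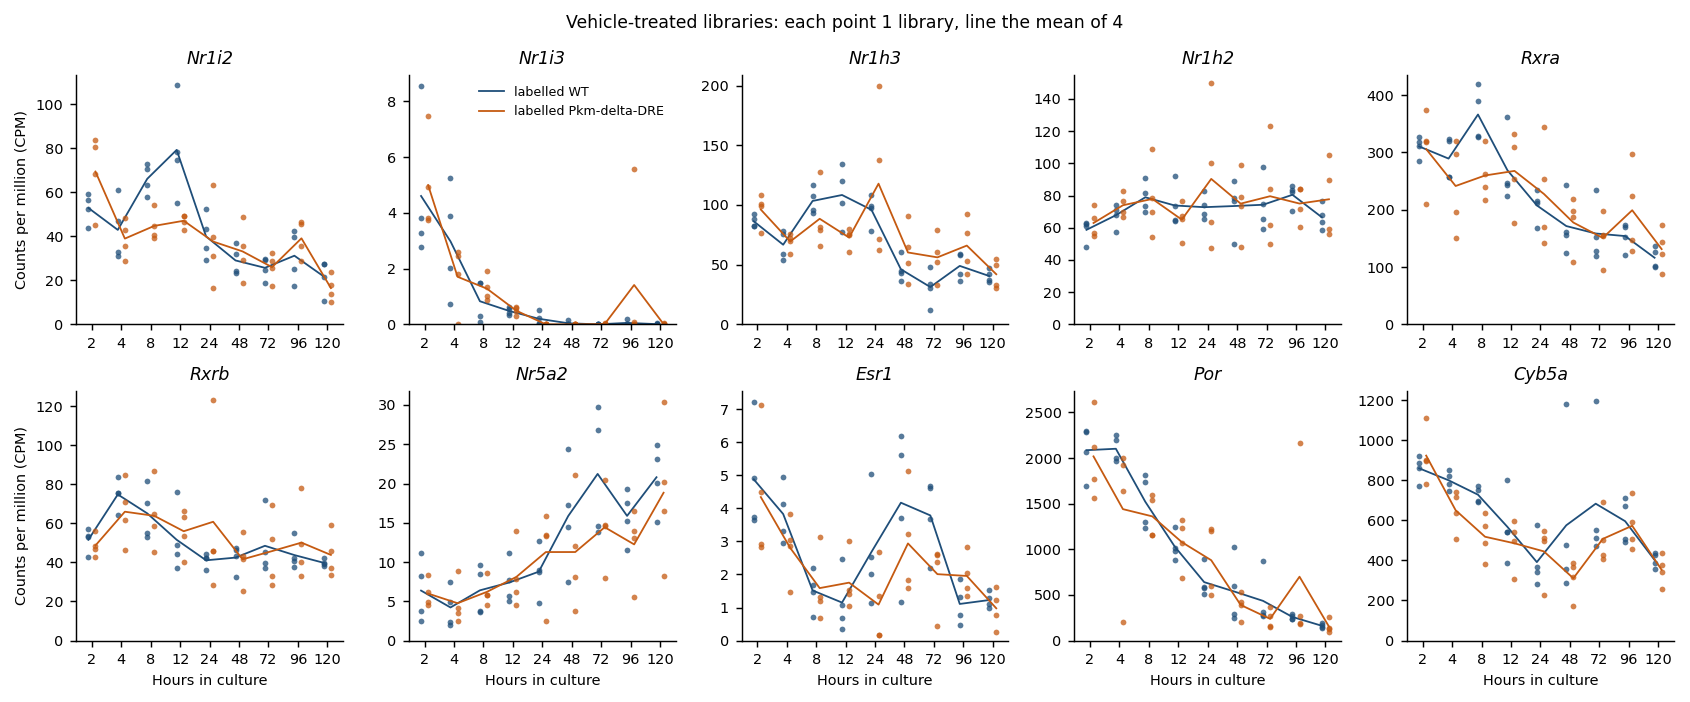
CPM of each member in vehicle-treated libraries against hours in culture, in order and not to scale in time, with 1 point per library and lines through the means of 4 libraries. *Por* falls from 1698 to 2296 CPM at 2 h to 139.3 to 187 CPM at 120 h under the label WT, *Nr5a2* rises, and the single high point of *Por* at 96 h is replicate 4 under the label PkmΔDRE.

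TCDD was then set against time-matched vehicle, 4 libraries against 4, at each of 9 times and under each label. *Nr1i3* had too few counts to be tested from 48 h on in WT and from 24 h on under the label PkmΔDRE, which left 86 and 85 tests of members. In WT 6 were called: 5 decreases at 8 h, where 37.4% of all genes were called and 13.6% were called lower, and an increase of *Por* at 120 h, where 1.46% were called. None was called at the other times, where the backgrounds were 0% (2 h), 0% (4 h), 0.0321% (12 h), 0.373% (24 h), 0.00763% (48 h), 0% (72 h) and 15.1% (96 h). Under the label PkmΔDRE none was called in edgeR's test, although 16 of the 85 had an unadjusted p under 0.05, beside 7.17% of all tests. DESeq2 called 3, *Por* and *Cyb5a* at 48 h, where it called 1.72% of all genes, and *Por* at 72 h, where it called 3.21%. The shares of all genes called there were 0% both at 2 and at 4 h, then 0.106% (8 h), 0.024% (12 h), 0.016% (24 h), 0.404% (48 h), 1.13% (72 h), 0.0793% (96 h) and 0.633% (120 h).

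The TCDD and vehicle libraries did not overlap for 16 of the 86 tests in WT, 6 with TCDD above and 10 with TCDD below, or 18.6%, where 12.2% of all tests over the 9 times did not overlap. Those labelled PkmΔDRE did not overlap for 8 of 85, 7 above and 1 below, or 9.41%, where the background was 4.03%. All 13 tests with TCDD above vehicle were of *Por*, *Cyb5a* or *Nr1i3*. Those of *Nr1i3* were at 12 h, where it could be tested only because of the counts in its TCDD libraries.

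*Por* was higher with TCDD at most times from 12 h on. At 12 h in WT, vehicle libraries held 884, 982, 1014 and 1239 CPM and TCDD libraries 1658, 2311, 1459 and 1595 CPM. At 24 h they held 512, 572, 588 and 889 CPM against 1226, 1142, 1013 and 1479 CPM, and at 120 h 153, 139.3, 187 and 166 CPM against 472, 491, 387 and 498 CPM. TCDD libraries were above all vehicle libraries at 12, 24, 96 and 120 h. The log2 fold change was 0.77 at 12 h (SE 0.21, adjusted p = 0.998), 1.01 at 24 h (SE 0.19, adjusted p = 0.0594), 0.55 at 96 h (SE 0.09, adjusted p = 0.0019, under the fold threshold) and 1.52 at 120 h (SE 0.13, adjusted p = 0.000468). The call at 120 h was kept with each of the 8 libraries left out in turn, with log2 fold changes of 1.46 to 1.60. At 120 h in WT, cholangiocyte markers summed to 140.3 to 193 CPM in vehicle and 105.7 to 111.5 CPM with TCDD, and endothelial markers to 28.7 to 48.5 CPM and 53 to 67.4 CPM, and the part of these in the *Por* value was not tested. The 24 h value was called without vehicle replicate 4 (1.2, adjusted p = 0.00652). At 96 h it was called without vehicle replicate 3, which stood apart (0.60, adjusted p = 0.00213). At 48 and 72 h in WT the groups overlapped and *Por* was at 0.75 and 1.05 (adjusted p = 1.00 at both times), and without the libraries that stood apart it was at 1.25 and 1.37 (adjusted p = 0.806 and 0.602).

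Under the label PkmΔDRE, *Por* in vehicle against TCDD was 1535, 1154, 1160 and 1593 against 3010, 1635, 1802 and 1720 CPM at 8 h. At 48 h it was 533, 206, 427 and 395 against 1414, 911, 1107 and 864 CPM, and at 72 h 144.4, 164, 271 and 372 against 738, 399, 408 and 529 CPM. The groups did not overlap at these 3 times. The log2 fold change was 0.57 at 8 h (SE 0.21, adjusted p = 1.00), 1.37 at 48 h (SE 0.29, adjusted p = 0.103) and 1.10 at 72 h (SE 0.31, adjusted p = 0.164). It was 1.10 at 12 h, 1.07 at 24 h and 0.93 at 120 h, with adjusted p of 0.508, 1.00 and 0.435. At 96 h it was -0.69 (SE 0.83) with vehicle replicate 4, which stood apart, and 1.12 without it (SE 0.19, adjusted p = 0.0116), a call. That library stood apart in *Por* itself as well as in albumin, so the call without it is not independent of the *Por* values. The share of all genes called in that fit is not given here. *Por* was also called without vehicle replicate 2 at 48 h (1.16, adjusted p = 0.014) and without vehicle replicate 1 at 72 h (0.93, adjusted p = 0.0491).

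Before 12 h *Por* in WT was not called in either direction. At 4 h TCDD libraries held 1426, 1761, 1942 and 1733 CPM, all below the vehicle libraries at 1966, 2000, 2193 and 2247 CPM, for a log2 fold change of -0.34 (SE 0.13, adjusted p = 0.286). With 1 surrogate variable in a fit of all libraries of the label the direction turned, to 0.18 at 4 h and 0.60 at 8 h (from -0.13), with adjusted p of 0.997 and 0.382.

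*Cyb5a* followed *Por* at several times. Under the label PkmΔDRE it was 386, 173, 318 and 367 CPM in vehicle and 1102, 686, 936 and 730 CPM with TCDD at 48 h, a log2 fold change of 1.39 (SE 0.26, adjusted p = 0.0628). At 24 h it was 546, 495, 228 and 511 against 1009, 870, 984 and 879 CPM (0.99, SE 0.31, adjusted p = 1.00), and at 72 h 427, 408, 502 and 692 against 782, 717, 694 and 887 CPM (0.57, SE 0.22, adjusted p = 0.349). None of these 3 pairs of groups overlapped, and the value at 48 h was called by DESeq2 (adjusted p = 0.000221) and without vehicle replicate 2 (1.19, adjusted p = 0.00711). In WT *Cyb5a* was 367, 341, 283 and 576 against 657, 620, 575 and 813 CPM at 24 h, groups that touched at 576 and 575 CPM (log2 fold change 0.86, SE 0.21, adjusted p = 0.156), and it was called without vehicle replicate 4 (1.09, adjusted p = 0.0121). At 120 h it was 359, 427, 387 and 436 against 616, 549, 512 and 506 CPM, without overlap (0.44, SE 0.12, adjusted p = 0.0955). At 48 and 72 h in WT it was at 0.58 and 0.64 (adjusted p = 1.00 at both times), and without the libraries that stood apart at 1.19 and 0.89 (adjusted p = 0.537 and 0.713).

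*Nr1i3* was above vehicle with TCDD at several times from 12 h on, at very low counts. At 12 h vehicle libraries held 0.422, 0.631, 0.319 and 0.545 CPM and TCDD libraries 3.70, 1.96, 1.23 and 2.20 CPM in WT, and 0.623, 0.575, 0.472 and 0.283 against 1.01, 1.68, 2.99 and 1.41 CPM under the label PkmΔDRE. Neither pair overlapped. The log2 fold change was 2.22 (SE 0.48, adjusted p = 0.483) and 1.81 (SE 0.50, adjusted p = 0.508), and DESeq2 called the first (adjusted p = 0.0105), where it called 0.209% of all genes. At 12 h the gene passed the filter on low counts only through its TCDD libraries. These tests, the DESeq2 call included, are therefore not independent of the difference and lend it no separate support. Summed over 4 libraries, the pooled ratio of counts was 4.71 in WT (152 counts against 40, 95% exact Poisson interval 3.46 to 6.59) and 3.53 under the label PkmΔDRE (2.57 to 4.99).

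Later, TCDD libraries still had a trace of *Nr1i3* where vehicle had little or none. At 24 h the PkmΔDRE vehicle libraries had no count, whereas all 4 TCDD libraries had counts, at 1.29, 0.397, 0.467 and 0.521 CPM, which is at least 17.3-fold higher with a floor of 3 counts over the group. At 72 h there the TCDD libraries held 51 counts and the vehicle libraries 1, a ratio of 40.8 (95% exact Poisson interval 7.32 to 1611). At 120 h in WT they held 18 counts and 1, a ratio of 21.1 (3.78 to 833), and in both cases all 4 TCDD libraries were above all vehicle libraries. Without a filter on low counts, the 72 h value under the label PkmΔDRE was called (adjusted p = 0.0365). At 72 h in WT 2 of 4 TCDD libraries had counts and no vehicle library did. At 96 h under the label PkmΔDRE vehicle replicate 4 held nearly all of the 73 vehicle counts, at 5.58 CPM against 0 to 0.0718 CPM in the others.

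**Figure D3:**
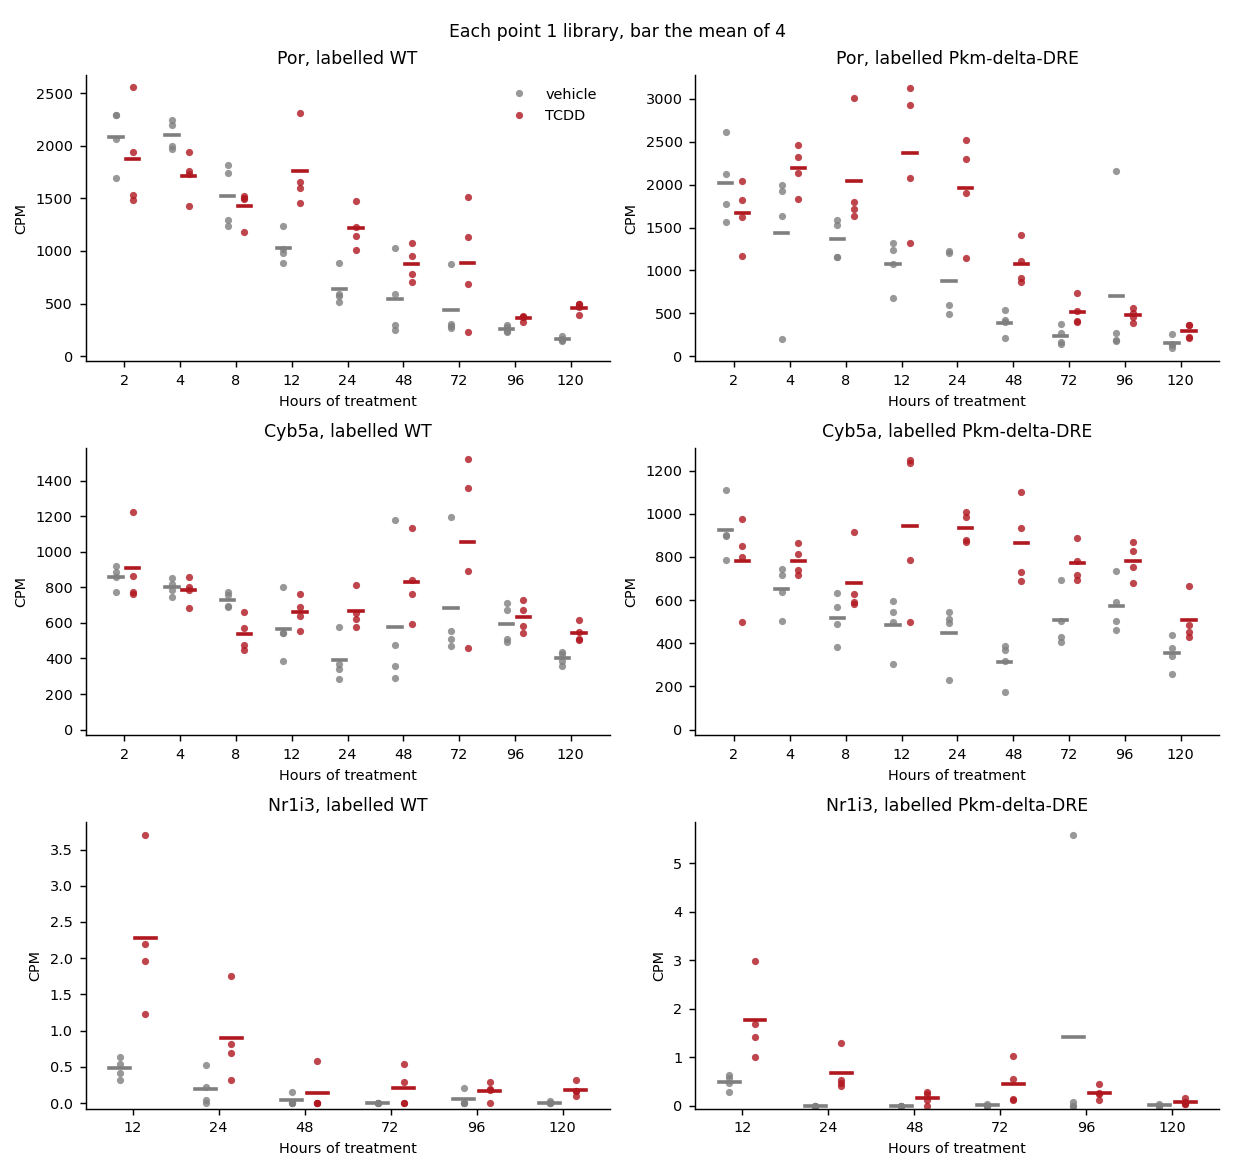
CPM of *Por*, *Cyb5a* and *Nr1i3* in vehicle-treated (grey) and TCDD-treated (red) libraries by hours of treatment, in order and not to scale in time, with 1 point per library and a bar at the mean of 4. TCDD points of *Por* lie above vehicle at 12, 24, 96 and 120 h in WT and at 8, 48 and 72 h under the label PkmΔDRE, and *Nr1i3* is shown from 12 h on.

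At 8 h in WT 5 of the 8 receptor genes were called lower with TCDD, both LXR and both RXR genes and the PXR gene, and 0 were called higher. *Nr1i2* was 57.7, 63.3, 70.4 and 73 CPM in vehicle and 34, 35.2, 13.9 and 52.6 CPM with TCDD, a log2 fold change of -0.99 (SE 0.29, adjusted p = 0.0157). *Nr1h3* was 95.4, 93.7, 116.6 and 107.8 against 58.2, 68, 33.8 and 68.5 CPM (-0.89, SE 0.20, adjusted p = 0.00444). *Nr1h2* was 90.6, 81.3, 70 and 73.8 against 58.1, 51.6, 46.3 and 54.3 CPM (-0.62, SE 0.15, adjusted p = 0.0049). In each of these the TCDD libraries were all below the vehicle libraries, and TCDD replicate 3 was the lowest.

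*Rxra* was 419, 390, 327 and 328 CPM in vehicle and 246, 244, 164 and 270 CPM with TCDD, without overlap (log2 fold change -0.70, SE 0.17, adjusted p = 0.00567). *Rxrb* was 81.9, 70.5, 55.2 and 52.8 against 58.7, 44.3, 39 and 35.7 CPM, which overlapped (-0.59, SE 0.20, adjusted p = 0.0297), and its call was lost without vehicle replicate 1 or 2 or TCDD replicate 2, 3 or 4. *Cyb5a* passed the p threshold but not the fold (-0.47, SE 0.15, adjusted p = 0.0203). Its TCDD libraries, at 445 to 661 CPM, were all below its vehicle libraries, at 691 to 771 CPM. Without TCDD replicate 1 it was called (-0.59, adjusted p = 0.00572). *Nr5a2*, *Esr1*, *Por* and *Nr1i3* were not called, at 0.54, 0.87, -0.13 and 0.26, and in a fit with 1 surrogate variable, where none was called either, they were at -0.87, 0.24, 0.60 and 1.05.

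Several library measures moved with these 8 h decreases. Vehicle libraries in WT had 15401 to 17203 genes with a count and TCDD libraries 18337 to 20626, and the share of pairs falling outside annotated exons was 3.94 to 4.84% and 7.21 to 15.6%. Summed hepatocyte markers were 73460 to 87065 CPM and 63668 to 70975 CPM, and summed Kupffer cell and macrophage markers 143.99 to 197 CPM and 61.8 to 119.5 CPM. The part of the gene numbers and the markers in the receptor values was not tested. The share outside annotated exons was entered in a fit, but its ranges in vehicle and TCDD libraries did not overlap. That share and the treatment therefore cannot be fully told apart. The receptor values of the fit with that share are not given here. A different fit, of all libraries of the label with 1 surrogate variable, called none of the 5. In it *Nr1i2* was at -0.68, *Nr1h3* at -0.61, *Nr1h2* at -0.20, *Rxra* at -0.12, *Rxrb* at 0.00 and *Cyb5a* at 0.11. Without TCDD replicate 3 the call was kept for *Nr1i2* and *Nr1h3* and lost for *Nr1h2*, *Rxra* and *Rxrb*, and *Nr1h2* was also lost without vehicle replicate 1.

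The decreases were not seen at 8 h under the label PkmΔDRE. There *Nr1i2* was 54.1, 39.3, 40.8 and 44.7 CPM in vehicle and 54.4, 34.3, 45.2 and 46.1 CPM with TCDD, and *Rxra* was 262, 217, 240 and 320 against 347, 219, 224 and 278 CPM, all overlapping. The log2 fold changes of *Nr1i2*, *Nr1h3*, *Nr1h2*, *Rxra* and *Rxrb* lay between -0.06 and 0.03. The tested difference between the labels, PkmΔDRE minus WT, was 0.87 for *Nr1i2* (SE 0.38, adjusted p = 0.295), 0.73 for *Nr1h3* (SE 0.33, adjusted p = 0.306) and 0.60 for *Rxra* (SE 0.24, adjusted p = 0.294), so none passed. It was 0.73 for *Cyb5a* (SE 0.24, adjusted p = 0.292) and 0.57 for *Por* (SE 0.27, adjusted p = 0.309).

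**Figure D4:**
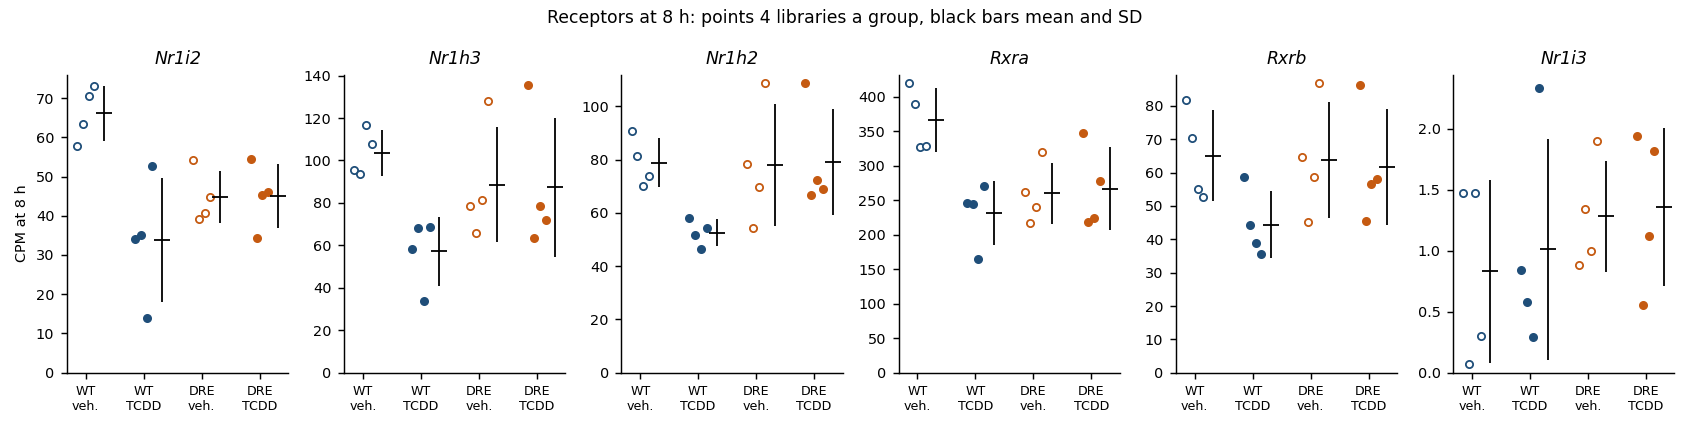
CPM at 8 h of 6 receptor genes in the 4 libraries of each group, open for vehicle and filled for TCDD, with black bars at the mean and SD; DRE stands for the label PkmΔDRE. TCDD points of *Nr1i2*, *Nr1h3*, *Nr1h2* and *Rxra* lie below vehicle in WT and overlap vehicle under the label PkmΔDRE.

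Single times in the other members gave differences that did not pass. *Rxrb* at 4 h in WT was 75.5, 75.7, 64.3 and 83.6 CPM in vehicle and 46.8, 44.9, 49.1 and 50.8 CPM with TCDD, without overlap, for a log2 fold change of -0.68 (SE 0.14, adjusted p = 0.286), and DESeq2 called it (adjusted p = 0.015), where it called 0.346% of all genes. *Esr1* at 120 h in WT was 1.52, 1.28, 1.11 and 0.994 against 0.736, 0.521, 0.323 and 0.474 CPM (-1.24, SE 0.35, adjusted p = 0.112), and at 96 h under the label PkmΔDRE 2.84, 1.36, 1.58 and 2.04 against 0.445, 0.715, 1.07 and 0.787 CPM (-1.40, SE 0.43, adjusted p = 0.598). TCDD libraries were below all vehicle libraries in both. *Nr1h2* at 96 h in WT was 85.8, 83.6, 70.6 and 81.9 against 64.9, 52.2, 60.8 and 57.8 CPM, and passed the p threshold but not the fold (-0.39, SE 0.10, adjusted p = 0.0127). *Nr5a2* under the label PkmΔDRE at 2 h had the largest positive value outside *Por*, *Cyb5a* and *Nr1i3*, at 1.08 (SE 0.35, adjusted p = 0.28), with groups that overlapped.

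**Figure D5:**
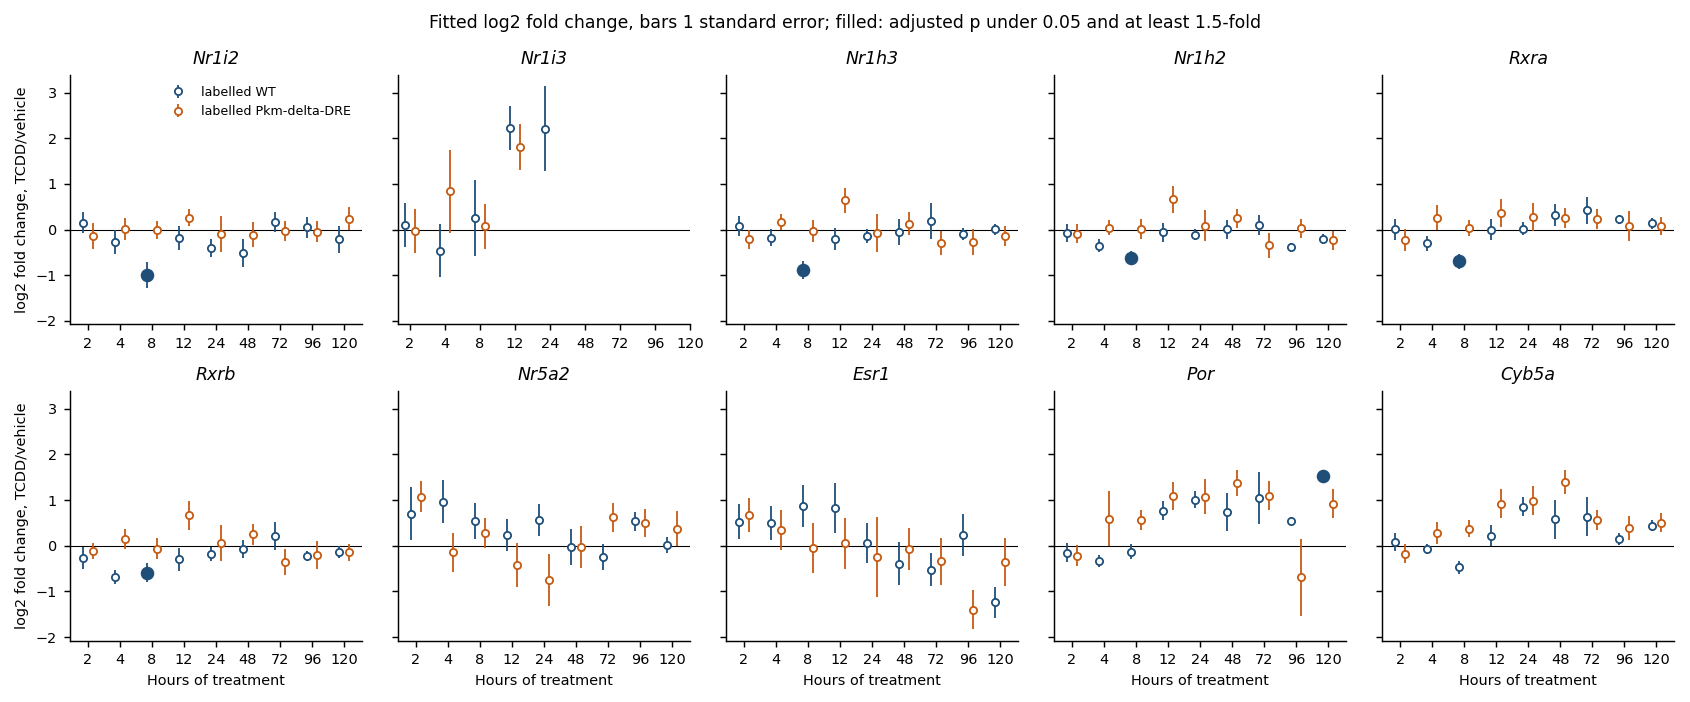
Fitted log2 fold change of TCDD over vehicle for each member by hours of treatment, with bars of 1 standard error, in blue for the label WT and orange for PkmΔDRE. Filled points were called, which are the 5 receptor decreases at 8 h and *Por* at 120 h (1.52), both in WT; *Nr1i3* has no point where it was too low to be tested.

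The labels were compared directly in 2 ways. In vehicle no member was called between PkmΔDRE and WT at any of the 9 times in edgeR's test or in DESeq2, where 0.188% of all tests were called, and 8 of 86 tests had an unadjusted p under 0.05, beside 9.37% of all tests. The largest such value that had counts in all libraries was *Por* at 96 h, at 1.52 (SE 0.65, adjusted p = 0.383), and without vehicle replicate 4 of PkmΔDRE it was -0.29. *Nr1i2* at 12 h was 74.7 to 108.6 CPM in 3 libraries and 55.3 CPM in the fourth in WT and 42.9 to 49.4 CPM under the label PkmΔDRE, without overlap, for a difference of -0.74 (SE 0.25, adjusted p = 0.134). The difference in the response to TCDD was called for no member by either tool, where 0.0016% of all tests were called, and 10 of 86 had an unadjusted p under 0.05, beside 6.49% of all tests. For *Por* it was 0.13 at 24 h (SE 0.44), 0.65 at 48 h (SE 0.54) and -0.59 at 120 h (SE 0.37), so the call at 120 h in WT alone is not shown to be particular to that label.

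Genes acting downstream of the members were described by lists. Of 27 CAR and PXR target genes 23 could be tested over time in vehicle, and 13 fell and 3 rose from 2 to 120 h in WT and 16 fell and 2 rose under the label PkmΔDRE. Their median log2 change was -2.31 and -2.91, beside 0.21 and 0.24 over all genes. Of all genes tested, 57.9% and 49.4% were called over these times. The P450 genes *Cyp2c54* (-10.31) and *Cyp3a11* (-9.92) fell most in WT, where the first had few or no counts left and its fitted value depends on the prior count, and *Cyp2a4* (5.82) and the transporter gene *Abcc4* (5.76) rose most. With TCDD, 4 of 21 target genes rose and 3 fell at 8 h in WT, which is 33.3% beside the 37.4% of all genes called there, among them the exporter genes *Abcb1a* (1.46) and *Abcc2* (1.41) and, lower, *Cyp2b10* (-0.73) and *Gstm3* (-0.71). *Cyp2b10*, the classical CAR target, rose between 2 and 24 h in vehicle under both labels, by 2.07 and 2.35 on the log2 scale, while *Nr1i3* fell. From 2 to 120 h *Cyp2b10* was called lower, with log2 changes of -2.24 in WT and -2.91 under the label PkmΔDRE. At 120 h in WT, where 1.46% of all genes were called, 3 of 20 rose and 2 fell with TCDD, with *Cyp2a4* at 2.61 and *Cyp2c50* at -1.99. Under the label PkmΔDRE *Cyp2a5* was the sole one called at 48 h, at 3.12, where 0.404% of all genes were called. *Cyp2a4* and *Cyp2a5* are near-identical in sequence, so reads may be split between them.

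Of 15 LXR target genes, 13 fell and 1 rose from 2 to 120 h in WT, and 10 fell and 1 rose under the label PkmΔDRE, with medians of -2.65 and -3.05. Beside each count from 2 to 120 h in this paragraph stand the shares of all genes called, 57.9% in WT and 49.4% under the label PkmΔDRE. *Abcb11*, the bile salt export pump, fell most (-7.24 and -8.06) and lipoprotein lipase *Lpl* rose (2.12 and 3.22). With TCDD at 8 h in WT, 3 of 14 rose, led by *Abcb11* (1.59) and the desaturase *Scd1* (1.43), and 2 fell, *Apoe* (-0.84) and the lipid transfer gene *Pltp* (-0.76), together 35.7% of the list beside 37.4% of all genes. Of 9 LRH-1 target genes, some of which the LXR and receptor lists also hold, 8 could be tested. All 8 fell under both labels from 2 to 120 h (medians -4.06 and -5.86), while *Nr5a2* rose, with *Cyp8b1*, which shapes the bile acid pool, at -9.60 and -9.59. Of 11 other genes of P450 electron supply, 5 fell and 2 rose under each label (medians -0.46 and -0.66), with mitochondrial ferredoxin *Fdx1* at -2.34 and -2.49 and the reductase *Cyb5r4* at 1.60 and 1.72. None of these 11 was called at 120 h with TCDD under either label, where *Por* was called in WT. *Pgrmc1*, 1 of the 11, stood at the p threshold there in WT (0.78, SE 0.17, adjusted p = 0.05). Of 25 other receptor genes, 10 rose and 8 fell under each label from 2 to 120 h (medians -0.11 and 0.01). Retinoic acid receptor γ, *Rarg*, rose most (3.99 and 4.18), and *Nr1d1*, a repressor of the circadian clock, fell most (-3.63 and -3.68). With TCDD at 8 h in WT, 4 of 22 rose, with *Nr1d2* (1.42) and *Nr2f2* (1.34), and 3 fell, with *Rarg* (-1.28) and *Nr2f6* (-0.83), together 31.8% of the list beside 37.4% of all genes.

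Likeness of course was measured over the 36 group means of log2(CPM + 0.5), against 9374 genes with a mean of at least 5 CPM. These means share the course of time, and genes are not independent, so the values are descriptions. *Por* was most like *Tmem63a* (Pearson r = 0.951), the hepatic lipase gene *Lipc* (0.950) and *Tmem86b* (0.944). *Nr1i3* was most like *Ehhadh*, a gene of peroxisomal fatty acid oxidation (0.945), *Cyp8b1* (0.945) and *Mfsd4b1* (0.941). *Nr1i2* and *Rxra* had *Sec22b* (0.881 and 0.944) and *Pex5* (0.881 and 0.940) in common among their 3, beside *Smim26* (0.881) and *Nags* (0.942). *Nr1h3* was most like *Sys1* (0.957), *Mpdu1* (0.928) and *Mrpl24* (0.928), *Nr1h2* like *Tbc1d17* (0.918), *Stk11* (0.900) and *Pef1* (0.890), and *Rxrb* like *Fgfrl1* (0.897), *Lemd2* (0.882) and *Fiz1* (0.869). *Nr5a2* was most like *Dynlt3* (0.956), *Aaed1* (0.956) and *Prkce* (0.954), *Esr1* like *Il33* (0.908), *Car8* (0.877) and *C1s1* (0.865), and *Cyb5a* like *Adh1* (0.823), *Cebpb* (0.809) and *Il4ra* (0.785). Among the members themselves *Por* and *Rxra* were most alike (r = 0.92) and *Rxra* and *Nr5a2* least (r = -0.83), and the LXR pair had r = 0.22.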

How the data were processed

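The files deposited by the authors hold counts of read pairs per gene, 1 file per library, made with STAR 2.7 after trimming with Trimmomatic 0.39, on mouse build GRCm39, as the submitters' processing notes list them. The column counted without regard to strand was used, and the 4 lines naming no gene (16.8 to 48.0% of pairs, median 24.2%) entered neither library sizes nor tests. Symbols were matched for 52083 of 55359 identifiers, and exon lengths came from an annotation of GRCm38. Counts were scaled by TMM and tested with edgeR 4.0.16 (robust quasi-likelihood test, R 4.3.3), with Benjamini-Hochberg adjustment over all genes kept by filterByExpr (minimum count 10, total 15). TCDD was set against vehicle in a fit of the libraries of each time point and time in culture in a fit of each label's 36 vehicle libraries. CPM for display were scaled over all libraries. The steps were tested on simulated data. No 2 libraries were identical. Intervals and floors cover counting error only. Alternatives were other scaling (RLE), no filter, DESeq2 1.42.0, no fold threshold, wider or narrower fits, and each library left out. Covariates (the share of pairs outside annotated exons, or 1 surrogate variable from sva 3.50.0) and the removal of 6 libraries were chosen after seeing the data. The members and all lists were chosen with earlier results of these data known. All 10 members are named, and list genes are the called ones with the largest or smallest change.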

Additional observations from a re-analysis of the deposited data

Results flagged for a closer look

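In 357 groups of 4 libraries in which a member had a count, 27 held 1 library whose distance from the other 3 exceeded Dixon's 95% critical value. Chance flags about 1 in 20 groups. In 6 of the 27, all of *Nr1i3*, the other 3 libraries were at 0, so that any count there exceeds the critical value by construction, and these cannot be set against that rate. Replicates are numbered within each group. Levels are in CPM, and the difference between each library and its group was not tested further.

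In libraries labelled WT and treated with vehicle, replicate 3 (2 h) held 48.3 of *Nr1h2* beside 61.1 to 63 in the others, and replicate 4 (12 h) held 362 of *Rxra* beside 224 to 246. Replicate 3 (72 h) held 876 of *Por* beside 271 to 309, and 1196 of *Cyb5a* beside 472 to 554. *Nr1i3* was 0.158 in replicate 1 (48 h), 0.209 in replicate 3 (96 h) and 0.0345 in replicate 1 (120 h), each beside 0 in the others. With TCDD, replicate 4 (2 h) held 83.3 of *Nr1i2* beside 49.4 to 51.2, and 132.4 of *Nr1h3* beside 74 to 81.4. Replicate 3 (8 h) held 1180 (1179.6) of *Por* beside 1496 to 1518. Replicate 2 (12 h) held 97.8 of *Nr1h2* beside 60 to 63.9, replicate 2 (48 h) held 0.578 of *Nr1i3* beside 0, and replicate 1 (96 h) held 320 (319.68) of *Por* beside 374 to 381.

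In libraries labelled PkmΔDRE and treated with vehicle, replicate 4 (96 h) held 2160.5 of *Por* beside 179 to 267, and 5.58 of *Nr1i3* beside 0 to 0.0718. Replicate 3 (24 h) held 228 of *Cyb5a* beside 495 to 546, and replicate 3 (72 h) held 0.438 of *Esr1* beside 2.37 to 2.63. *Nr1i3* was 0.0433 in replicate 1 (72 h) and 0.0352 in replicate 2 (120 h), each beside 0. With TCDD, replicate 1 (8 h) held 3010 (3009.5) of *Por* beside 1635 to 1802, 915 of *Cyb5a* beside 581 to 629, and 108.8 of *Nr1h2* beside 66.9 to 72.3. *Nr1h2* was 95.6 in replicate 1 (4 h) beside 65.8 to 70.7, and 102.4 in replicate 1 (96 h) beside 70.5 to 72.3. *Esr1* was 3.90 in replicate 1 (12 h) beside 1.05 to 1.52, and 2.29 in replicate 4 (72 h) beside 1.37 to 1.51. Replicate 1 (24 h) held 1.29 of *Nr1i3* beside 0.397 to 0.521.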

How the results depend on the processing

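Of the 6 member calls with TCDD in WT, only *Por* at 120 h was kept with 1 surrogate variable. There *Por* at 24 h was newly called (1.26, adjusted p = 0.029), for 2 calls in all. The number of calls in WT was 11 with DESeq2, and ranged from 3 (without TCDD replicate 3 at 8 h) to 8 with a library left out. The 0 calls under the label PkmΔDRE became 1 in 1 fit per label, 2 with 1 surrogate variable, 3 with DESeq2 and 4 with no filter. They became 4 with the share of pairs outside annotated exons in the fit and 1 without the 6 libraries that stood apart. With a library left out they ranged from 0 to 2 (2 without vehicle replicate 2 at 48 h, 1 without vehicle replicate 1 at 72 h or 4 at 96 h). Shares of all genes called in these alternative fits are not given here, beyond those of DESeq2 stated above. Whether a gain or loss of calls concerns the members or all genes alike is therefore not shown. The 18 and 15 calls over time ranged from 16 to 19 and from 13 to 16 with a library left out. With the share of pairs outside annotated exons in the fit, the rise of *Nr5a2* from 2 to 120 h was not called under either label. Counts of calls over time under the other alternatives are not given here. In vehicle, the 0 calls between labels became 2 in 1 fit of all libraries, *Nr1i3* (4.5) and *Por* (1.47) at 96 h, where a library stands apart, and stayed 0 with each library left out. The difference in response had 0 calls under each alternative run. With 1 surrogate variable the sign differed for 40 of the TCDD values of members tested. Among those with an unadjusted p under 0.05 it changed for *Nr5a2* at 2 h under the label PkmΔDRE (-0.055) and at 96 h in WT (-0.063), for *Por* at 4 h (0.18) and for *Rxrb* (0.004) and *Cyb5a* (0.11) at 8 h in WT, and among the others named at 8 h for *Nr5a2* (-0.87) and *Por* (0.60). The label difference of *Por* at 96 h ranged from -0.29 (without vehicle replicate 4 of PkmΔDRE) to 1.84 with a library left out and was -0.23 without the 6 libraries. The causes were not tested. Of 1587 alternative values of the 93 log2 fold changes with an unadjusted p under 0.05 or a call, 1493 kept their sign and their side of the threshold, 42 lost a call, 45 gained one and 7 changed sign. No paired analysis was possible because the labels carry no replicate numbers shared between groups. Depth limits *Nr1i3* most, which had 0 to 20 counts over 4 vehicle libraries from 24 h on, apart from the PkmΔDRE group at 96 h.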

Other observations

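Coregulators of nuclear receptors and chaperones of the CAR complex, were taken as a list of 17 genes. From 2 to 120 h in vehicle, 9 rose and 2 fell in WT and 7 rose and 2 fell under the label PkmΔDRE, with medians of 0.77 and 0.83 beside 0.21 and 0.24 over all genes. These are 64.7% and 52.9% of the list, beside 57.9% and 49.4% of all genes called. *Hsp90aa1*, a chaperone, rose by 3.28 and 2.20, the corepressor *Ncor1* rose by 2.45 and 2.51, and *Ppargc1b*, a coactivator of mitochondrial genes, was at -1.56 and -2.10. With TCDD at 8 h in WT, 12 of 17 rose and 0 fell (median 1.00), which is 70.6% beside 37.4% of all genes called in either direction, among them the acetyltransferase *Ep300* (1.48) and *Med1* (0.71), in the same libraries in which the members above were lower and more pairs fell outside annotated exons. At 120 h with TCDD none of the 17 was called under either label.

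At 12 h under the label PkmΔDRE, TCDD replicates 1 and 3 were above the other 2 in several members at once. *Nr1h2* was 136.1 and 141.3 CPM in them and 55 and 89.9 CPM in the others, and *Rxrb* was 122.1 and 123.8 CPM against 44.1 and 74.4 CPM.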
